A study of Arabidopsis thaliana with 4 samples.

Results

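PYK10 (AT3G09260), NAI2 (AT3G15950) and JAL33 (AT3G16450) are genes of the ER body and of the PYK10 complex in Arabidopsis thaliana, and their transcripts were compared between seedlings of the exo70A1-2 mutant and of wild-type Col-0. They were chosen by name, with earlier results of these data known. Each was represented by 1 probe set that carries the name of a single gene, so 3 of the 22746 probe sets that are not controls are described. RNA of whole seedlings was hybridised to 4 one-colour Affymetrix ATH1 arrays, 2 for exo70A1-2 and 2 for Col-0. The mutant is in the Col-0 background and is affected in EXO70A1, a subunit of the exocyst, a complex that brings vesicles into contact with the cell surface for secretion. Per the labels, seed of both genotypes was kept in water in the cold for 3 days, and plants were grown at 75 seeds per plate and 65% humidity for 1 week on vertical plates with 1.6% agar, at 22 °C under continuous light. No label tells if replicate arrays hold RNA of separate cultures, and p-values therefore reflect only array-to-array spread, possibly technical.

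The ER body is a spindle-shaped compartment of the endoplasmic reticulum found in plants of the Brassicales, abundant in the roots and in the epidermis of young seedlings. It stores beta-glucosidases, of which PYK10 is the main one in seedlings, apart from their glucoside substrates. When tissue is damaged, PYK10 meets jacalin-related lectins and other proteins of the cytosol and vacuole and forms large complexes with them, and the released enzyme is known to act on indole glucosinolates and on the coumarin glucoside scopolin. NAI2 is an ER body protein needed for the compartment to form, JAL33 is one of the lectins of the complex, and NAI1 is a bHLH transcription factor needed for normal expression of PYK10 and NAI2.

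No probe set was named for EXO70A1, so its level does not check the genotype labels. Median signals of the arrays ranged from 37.3 to 38.8. Of 13648 probe sets bright enough to be tested, 2189 changed at an adjusted p under 0.05 (limma), which is 16% (8.54% higher and 7.5% lower in exo70A1-2), and of the 7213 named genes tested, each counted by its brightest probe set, 14.1% changed. Among markers of the tissues in a seedling, 2 of 12 root genes and 2 of 7 genes of green tissue had a probe set of their own. EXPA7 and EXPA18, expansin genes of root hairs, summed to a signal of 128 and 127 on the exo70A1-2 arrays, against 125 and 99.2 on the Col-0 arrays. The photosynthesis genes RCA and LHCB4.1 summed to 8763 and 9005 in exo70A1-2, against 10104 and 9325 in Col-0. Transcripts of roots and of green tissue were thus both measured, as the label of whole plants says, and none of these 4 genes passed the test. Since whole seedlings were measured, fewer cells of a type and less RNA per cell cannot be told apart.

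None of the 3 ER body genes passed the test for a difference between exo70A1-2 and Col-0 (limma, adjusted p of 0.230 or more), and all 3 gave bright signals. The fitted differences were a 0.971-fold level for PYK10, 1.13-fold for NAI2 and 1.14-fold for JAL33. Among the 7213 named genes tested, 9.82% had a smaller absolute log2 fold change than PYK10, 38.3% a smaller one than NAI2 and 40.1% a smaller one than JAL33. The median absolute log2 fold change of those genes, most of them dimmer, was 0.24, so each of the 3 lay below it. In the brightest 1% of probe sets, which take in PYK10 and JAL33, that median was 0.19, near the 0.18 of JAL33.

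**Figure D1:**
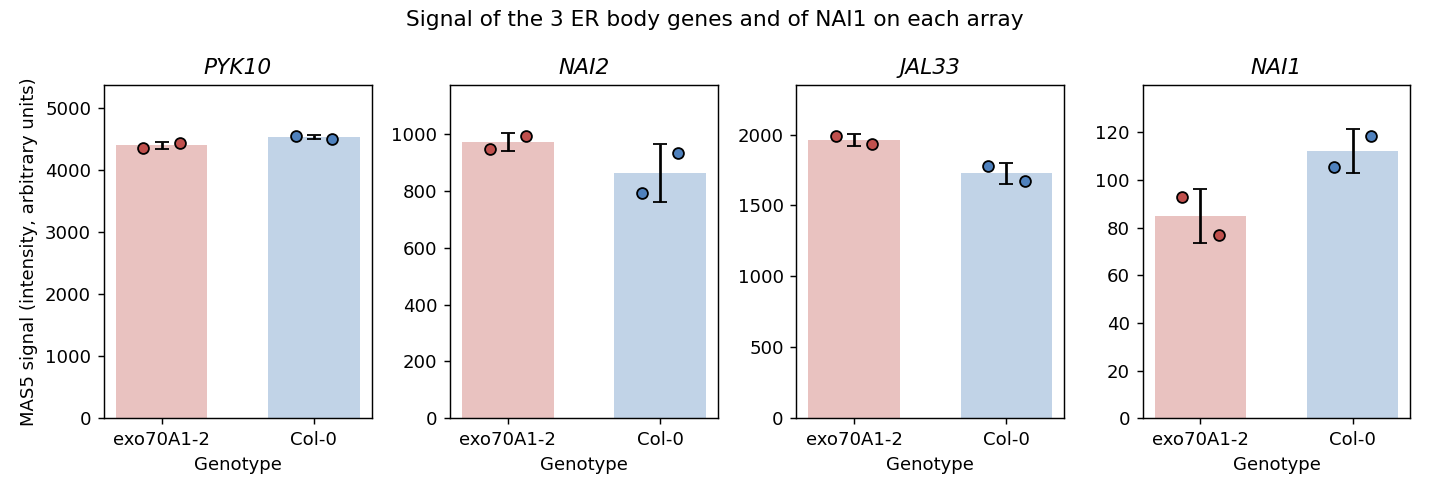
Signal of PYK10, NAI2, JAL33 and the regulator gene NAI1 on the linear MAS5 scale, exo70A1-2 left and Col-0 right in each panel. Points are single arrays, bars are means and whiskers are 1 SD of 2 arrays; the vertical scale differs between panels and starts at 0. PYK10 reads 4356 and 4440 in exo70A1-2 beside 4551 and 4505 in Col-0, while for NAI2 the 2 Col-0 arrays lie further apart than the means of the genotypes.

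PYK10 encodes the beta-glucosidase that fills the ER bodies of seedlings. Its signal was 4356 on exo70A1-2 replicate 1 and 4440 on replicate 2, against 4551 on Col-0 replicate 1 and 4505 on replicate 2. Both mutant arrays lay below both Col-0 arrays, by a small margin. The means were 4398 ± 59.5 in exo70A1-2 and 4528 ± 32.6 in Col-0 (SD, n = 2 arrays each, here and below). The log2 fold change was -0.04 with a standard error of 0.09 and a 95% interval from -0.24 to 0.16 (limma, adjusted p = 0.782). On the linear scale that interval runs from a 0.846-fold to a 1.12-fold level. Compared array by array, the log2 difference between a mutant and a Col-0 array was -0.06, -0.05, -0.04 and -0.02 in the 4 possible pairs. The mutant arrays differed from each other by 0.03 and the Col-0 arrays by 0.01 on the log2 scale. The direction turned after quantile normalization, with a log2 fold change of 0.03 (limma, adjusted p = 0.788).

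NAI2 encodes the protein without which ER bodies do not form. Its signal was 948 and 994 in exo70A1-2, against 791 and 934 in Col-0. The mutant arrays were again on one side, here the higher one, and Col-0 replicate 1 stood low beside the other 3 arrays. The means were 971 ± 32.0 in exo70A1-2 and 862 ± 101 in Col-0. The log2 fold change was 0.18 (SE 0.12, 95% interval -0.09 to 0.44; limma, adjusted p = 0.336). The 4 differences between a mutant and a Col-0 array ran from 0.02 to 0.33 on the log2 scale. The Col-0 arrays differed from each other by 0.24, which is more than the difference between the genotypes. Leaving out Col-0 replicate 1 gave a log2 fold change of 0.06 (limma, adjusted p = 0.800). Leaving out Col-0 replicate 2 gave 0.29, which did not pass either (limma, adjusted p = 0.0930).

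JAL33 encodes a jacalin-related lectin found in the PYK10 complex. Its signal was 1991 and 1930 in exo70A1-2, against 1779 and 1676 in Col-0. Both mutant arrays lay above both Col-0 arrays, and the arrays of a genotype lay close together. The means were 1961 ± 43.4 in exo70A1-2 and 1728 ± 73.2 in Col-0. The log2 fold change was 0.18 (SE 0.10, 95% interval -0.03 to 0.40; limma, adjusted p = 0.230). The 4 differences between a mutant and a Col-0 array ran from 0.12 to 0.25, while replicate arrays differed by 0.05 in exo70A1-2 and 0.09 in Col-0. Of the 3 genes it was the one that came nearest to the threshold, with a log2 fold change of 0.28 after quantile normalization (limma, adjusted p = 0.0524).

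The arrays of the genotypes did not overlap for any of the 3 genes. The same held for 58.9% of the named genes tested, 29.4% with the mutant higher and 29.6% with the mutant lower, so this separation is common on these arrays. With 2 arrays a genotype, an exact two-sided permutation test of a single gene cannot go below p = 0.333, and each of the 3 genes gave that value. In the limma fit an unadjusted p of 0.00801 was the highest that passed. At that limit and the precision of the fit, a fitted log2 change of 0.30 or 1.23-fold in PYK10 would have passed. For NAI2 the corresponding change was 0.39 or 1.31-fold, and for JAL33 it was 0.33 or 1.26-fold. These are the smallest fitted values that would have passed, not limits on the true change. With 4 arrays, true changes near or below these sizes could be missed.

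**Figure D2:**
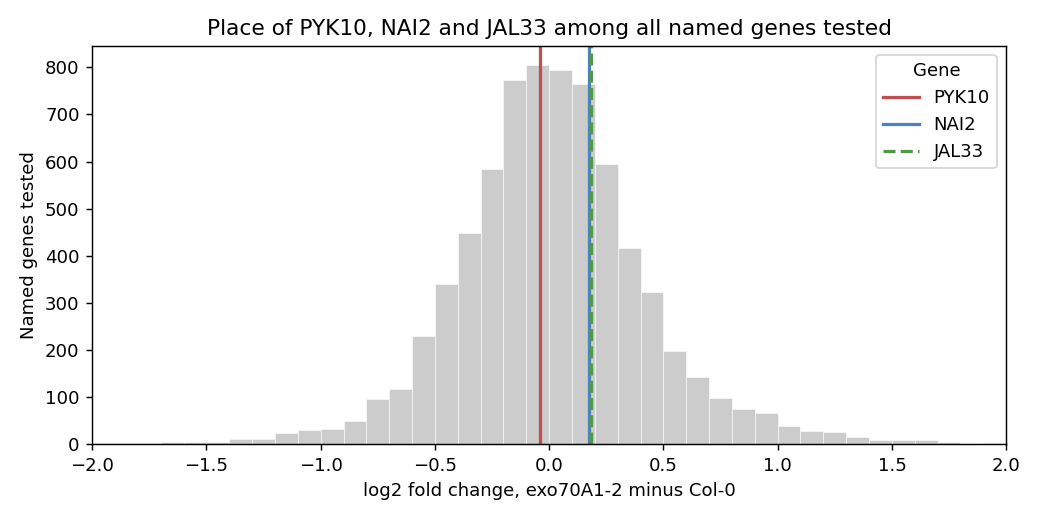
Log2 fold change, exo70A1-2 minus Col-0, of the 7213 named genes tested, in bins of 0.1, with vertical lines at PYK10, NAI2 and JAL33. The axis is limited to 2 on either side, which leaves out 23 genes; PYK10 at -0.04, NAI2 at 0.18 and JAL33 at 0.18 all stand in the central bulk of the distribution.

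PYK10 was among the brightest probe sets of the arrays, with 23 others above it by mean log2 signal, against 215 for JAL33 and 611 for NAI2. Brightness depends on the probes as well as on the transcript, so no order of transcript levels follows from it. The highest signal of PYK10, 4551, lay below the highest signal on any array, 8711. That comparison does not tell how far the signal of PYK10 could still have risen. Of the 228 probe sets in the brightest 1%, which take in PYK10 and JAL33, 12 rose and 30 fell in exo70A1-2 (limma). That is 18.4% called, against 16% of all tested probe sets (8.54% higher and 7.5% lower). The median log2 fold change of the 228 was -0.13. PYK10 at -0.04 and JAL33 at 0.18 thus lay above the median of these bright probe sets.

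Ratios of genes within an array do not depend on a single factor that scales the whole array, and they were examined after the values had been seen. Quantile normalization can change them, since it moved PYK10 from -0.04 to 0.03 and JAL33 from 0.18 to 0.28. The log2 ratio of JAL33 to PYK10, taken relative to its mean over the 4 arrays, was 0.15 and 0.08 in exo70A1-2, against -0.08 and -0.15 in Col-0. The ratio was thus higher on both mutant arrays, by 0.23 on average, while replicate arrays differed by at most 0.07. This difference follows from the fold changes of JAL33 and PYK10 given above, neither of which passed. How many other pairs of genes separate the genotypes in this way was not examined. The ratio of NAI2 to PYK10 differed by 0.22 between the genotypes, but the Col-0 arrays differed from each other by 0.25. The ratio of JAL33 to NAI2 differed by 0.01, and the genotypes overlapped. Only the first of these differences was larger than the spread between replicates, and the exact permutation test can give no p below 0.333 for any of them.

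The regulator gene NAI1 (AT2G22770) gave the lowest log2 fold change among the tested ER body genes. Its signal was 93.1 and 77.0 in exo70A1-2, against 106 and 119 in Col-0. Both mutant arrays lay below both Col-0 arrays, with means of 85.0 ± 11.4 in exo70A1-2 and 112 ± 9.23 in Col-0. The log2 fold change was -0.40 (SE 0.16, 95% interval -0.76 to -0.04), and it did not pass after adjustment (limma, adjusted p = 0.123). Without exo70A1-2 replicate 2 it was -0.27 (limma, adjusted p = 0.587), and without exo70A1-2 replicate 1 it was -0.54 (limma, adjusted p = 0.142). NAI2 and PYK10, whose normal expression needs NAI1, stood at 0.18 and -0.04 on the same arrays. The log2 ratio of NAI2 to NAI1 was higher in exo70A1-2 by 0.58, with replicate arrays up to 0.34 apart. That of PYK10 to NAI1 was higher by 0.36, with replicate arrays up to 0.30 apart. Both differences follow from the fold changes of NAI1, NAI2 and PYK10, none of which passed. For either ratio the exact permutation test can give no p below 0.333.

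The list of ER body and PYK10 complex genes held 24 genes, the 3 above included. Of these 11 had a probe set of their own, 7 were bright enough to be tested and 0 changed (limma), with 1, NAI1, at an unadjusted p under 0.05. With 14.1% of all named genes tested called, a count of 0 among 7 lies near that share. The median log2 fold change of the 7 was 0.03, against 0.00 for all named genes tested, and the range ran from -0.40 for NAI1 to 0.18 for JAL33. JAL34 (AT3G16460), the lectin gene next to JAL33 on the chromosome, had a signal of 1794 and 1836 in exo70A1-2, against 1758 and 1809 in Col-0. The arrays of JAL34 overlapped between the genotypes, and its log2 fold change was 0.03 (SE 0.09). JAL22 (AT2G39310), another jacalin-related lectin, had 860 and 718 in exo70A1-2, against 824 and 640 in Col-0, and replicate arrays differed more than the genotypes did (log2 fold change 0.11, SE 0.15). BGLU25 (AT3G03640), a beta-glucosidase related to PYK10, had 115 and 109 in exo70A1-2, against 128 and 127 in Col-0, a log2 fold change of -0.19 that did not pass (limma, adjusted p = 0.381). Of the 7 genes named as JAL lectins, 4 had a probe set of their own, 3 were tested and 0 changed (limma), also at an unadjusted p under 0.05, too few genes to set against that share of 14.1%.

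The other 4 genes of the list with a probe set were too dim to be tested, the limit being a signal of 21.9. BGLU19 (AT3G21370), a beta-glucosidase, had 29.5 and 20.5 in exo70A1-2, against 12.5 and 12.5 in Col-0. One of its mutant arrays lay over the limit. BGLU24 (AT5G28510), BGLU20 (AT1G75940) and JAL23 (AT2G39330) stayed under it on every array, with a highest signal of 7.58. For 13 genes of the list no probe set of their own was named here. BGLU21 and BGLU22 share 1 probe set, so no value is given for either.

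**Figure D3:**
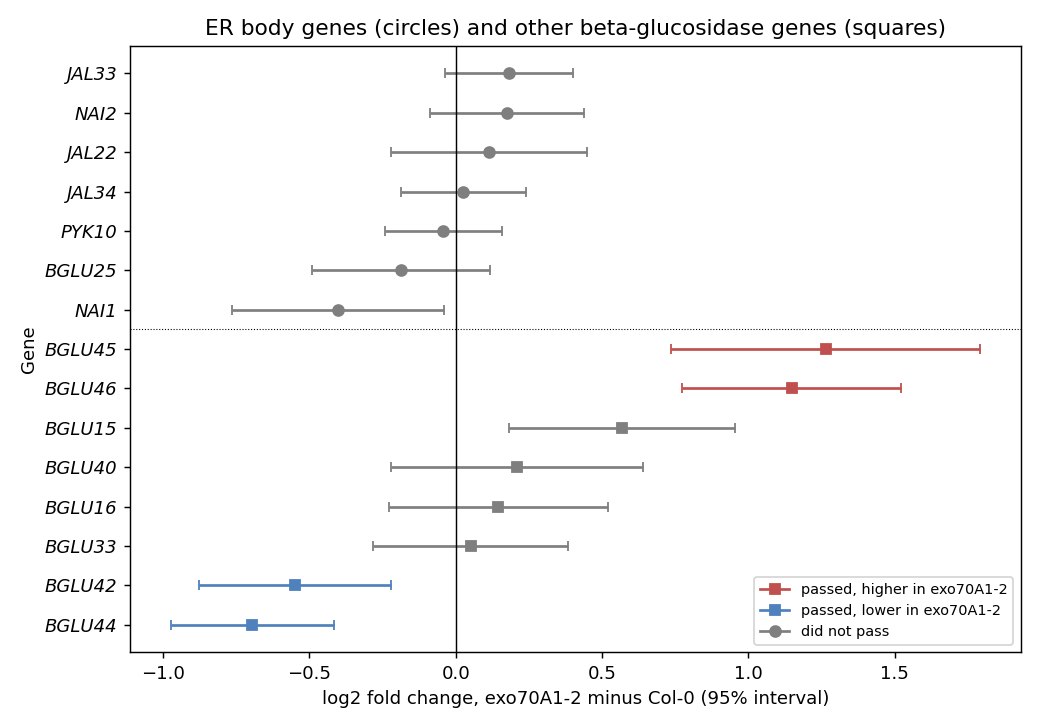
Log2 fold change, exo70A1-2 minus Col-0, with the 95% interval of the limma fit, for the 7 tested ER body genes (circles, above the dotted line) and the 8 other tested beta-glucosidase genes (squares, below it). BGLU45 and BGLU46 passed as higher and BGLU42 and BGLU44 as lower in exo70A1-2, while 0 of the ER body genes passed.

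PYK10 belongs to the beta-glucosidase family, whose members cleave glucose from many plant glucosides, and other members of the family did change. Of 47 named BGLU genes 22 had a probe set of their own and 10 were tested, 2 of which rose and 2 fell in exo70A1-2 (limma), against 7.54% higher and 6.53% lower among all named genes tested. The median log2 fold change of the 10 was 0.10. BGLU46 (AT1G61820) and BGLU45 (AT1G61810), neighbouring genes whose enzymes are known to act on monolignol glucosides, the stored precursors of lignin, were the pair that rose. BGLU46 had a signal of 81.3 and 77.8 in exo70A1-2, against 35.7 and 36.0 in Col-0, a log2 fold change of 1.15 (SE 0.16; limma, adjusted p = 0.00291). BGLU45 had 37.4 and 32.3 in exo70A1-2, against 15.0 and 14.0 in Col-0. Both Col-0 arrays lay under the dim limit, so BGLU45 was at least 1.59-fold higher in the mutant, the ratio of the mutant mean on the log2 scale to that limit. It passed the filter on dim probe sets only through exo70A1-2, and with no filter it was also called (limma, adjusted p = 0.0401). The count among the 10 tested genes thus rests in part on the filter. With no filter 22 BGLU genes were tested and the same 4 were called (limma). Among all 22746 probe sets 889 were then higher and 730 lower.

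BGLU44 (AT3G18080) and BGLU42 (AT5G36890) were the members that fell. BGLU44 had a signal of 510 and 455 in exo70A1-2, against 843 and 722 in Col-0, and its log2 fold change was -0.69 (SE 0.12; limma, adjusted p = 0.00729). BGLU42, known from iron-deficient roots and from coumarin release, had 87.9 and 79.6 in exo70A1-2, against 127 and 118 in Col-0. Its log2 fold change was -0.55 (SE 0.14; limma, adjusted p = 0.0342). BGLU42 no longer passed without Col-0 replicate 1 (limma, adjusted p = 0.0736), without exo70A1-2 replicate 1 (0.0807), without exo70A1-2 replicate 2 (0.234) or without an intensity trend in the variance prior (0.0526). BGLU15 (AT2G44450) just missed the threshold, with 148 and 147 in exo70A1-2, against 116 and 85.4 in Col-0 (log2 fold change 0.57, SE 0.17; limma, adjusted p = 0.0530). Without Col-0 replicate 1 it was 0.79 and passed (limma, adjusted p = 0.00615), and without Col-0 replicate 2 it was 0.35 and did not (limma, adjusted p = 0.132). BGLU16, BGLU33 and BGLU40 stood at 0.15, 0.05 and 0.21 on the log2 scale and did not pass.

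The known substrates of PYK10 are made by pathways of which few genes could be measured. Of 12 genes of indole glucosinolate synthesis only UGT74B1 (AT1G24100) was tested, the S-glucosyltransferase that adds the glucose to the glucosinolate core. Its signal was 166 and 128 in exo70A1-2, against 352 and 317 in Col-0, so that both mutant arrays lay far below both Col-0 arrays. UGT74B1 fell by 1.19 on the log2 scale (SE 0.15; limma, adjusted p = 0.00186). As 1 of 12 listed genes, acting on the glucosinolate core, it does not tell how indole glucosinolate synthesis as a whole stood. Of 6 coumarin genes 4 were tested and 2 were called lower, BGLU42 and the scopoletin 8-hydroxylase gene AT3G12900. These are too few genes to set against the 6.53% lower among all named genes tested. BGLU42 is also counted in the beta-glucosidase family above, with the limits given there. By their names, BGLU42 is a beta-glucosidase and the enzyme of AT3G12900 acts on scopoletin. Neither call is thus for a gene of scopoletin or scopolin synthesis. AT3G12900 had a signal of 15.3 and 20.8 in exo70A1-2, against 87.2 and 75.6 in Col-0. Both mutant arrays lay under the dim limit, so it was at least 3.71-fold lower in exo70A1-2, and it passed the filter on dim probe sets only through Col-0. With no filter it was also called (limma, adjusted p = 0.00353). AT3G13610, whose enzyme opens the route to scopoletin, stood at -0.21 and AT1G28680, a coumarin synthase gene, at -0.22, and neither passed. On leaving out 1 array the first ran from -0.36 to -0.07 and the second from -0.36 to -0.08. None of the 13 listed genes of glucosinolate breakdown had a probe set of its own, and of 14 jasmonate genes only JMT had one, which was too dim to be tested.

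The genes nearest to the members on the chromosome were few on the array. Of the 5 protein-coding genes on each side of PYK10, NAI2 and JAL33, 30 in all, 11 had a probe set of their own, 5 were tested and 0 changed (limma), with 0 at an unadjusted p under 0.05, a count near the 14.1% of all named genes. Beside PYK10, AT3G09250 stood at a log2 fold change of -0.31. Beside NAI2, AT3G15940 stood at -0.24, AT3G15970 at -0.0039 and AT3G15980 at 0.05. The tested neighbour of JAL33 was JAL34.

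Genes whose pattern over the 4 arrays was most like that of a member were sought among the other 7300 tested probe sets of 1 gene, by the root mean square difference of log2 signals, each centred on its own mean. The pattern of PYK10 was nearest to those of AT5G06180, ACS (AT5G36880), an acetyl-CoA synthetase gene, and AT2G47250, at differences of 0.00566, 0.00760 and 0.00881. For NAI2 they were AT3G09085, AT5G26760 and AT5G13100, at 0.00920, 0.00930 and 0.0109. For JAL33 they were CYS1 (AT5G12140), a cysteine protease inhibitor gene, AT1G14130 and AT4G10810, at 0.00687, 0.0124 and 0.0137. CYS1 had a signal of 702 and 687 in exo70A1-2, against 632 and 599 in Col-0. The distances between the members themselves were 0.14 for PYK10 and NAI2, 0.12 for PYK10 and JAL33 and 0.12 for NAI2 and JAL33. The distances above are the smallest among 7300 for each member, so they set no scale for those between members. These are descriptions over 4 arrays, in which the members hardly varied.

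Markers of other cells stood as follows on the same arrays. Of 3 listed genes of guard cells and the stomatal lineage, FMA (FAMA) and SPCH had a probe set. Signals of FMA and SPCH summed to 56.2 and 53.4 in exo70A1-2, against 86.4 and 74.5 in Col-0. The phloem sugar transporter gene SWEET11, the 1 of 3 phloem markers with a probe set, had a signal of 578 and 639 in exo70A1-2, against 720 and 786 in Col-0. None of these 3 genes passed (limma, adjusted p of 0.0932 for FMA, 0.130 for SPCH and 0.0969 for SWEET11). Their part in the values of the ER body genes was not tested.

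**Figure D4:**
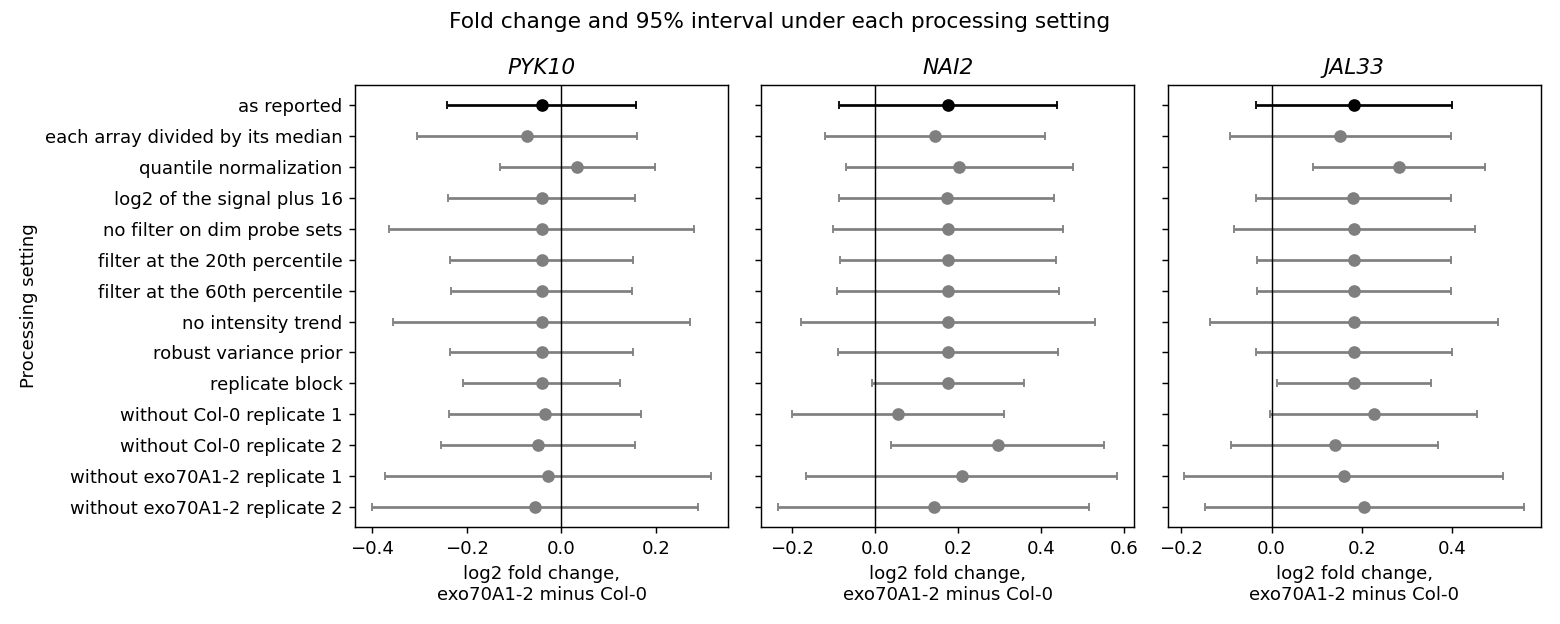
Log2 fold change, exo70A1-2 minus Col-0, with its 95% interval for PYK10, NAI2 and JAL33 under the processing used (black, top) and 13 other settings (grey). PYK10 lies between -0.07 and 0.03, NAI2 between 0.06 and 0.29 and JAL33 between 0.14 and 0.28, and none passed under any of these settings.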

How the data were processed

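The deposited table holds 1 intensity for each of 22810 probe sets and each of 4 arrays in linear units. The authors had scaled the arrays to the same trimmed mean (2% removed from either end), as the values show. MAS5 and GCOS are named, with no version, in the submitters' processing notes. MAS5 treats each array on its own and subtracts mismatch probes, which makes dim signals noisy. Signals were put on the log2 scale, adding no constant to the deposited values. The 64 control probe sets were left out, and the 13648 probe sets with a mean log2 signal at or above the 40th percentile, a signal of 21.9, were tested with limma 3.58.1 in R 4.3.3 (lmFit, eBayes with an intensity trend, two-sided). P-values were adjusted by Benjamini-Hochberg over all of them, with a threshold of 0.05. The variance prior had 6.66 degrees of freedom, and standard errors and intervals are the moderated ones.

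Probe sets were named through the platform's annotation and updated through RefSeq (TAIR10.1), from which names and gene order were taken. Of 22746 probe sets, 13513 had 1 gene, 503 several and 8730 none named here. Groups and replicate numbers came from the sample titles, and the number of arrays limits the precision. Members and gene lists were chosen with earlier results of these data known. Genes named are the 3 members, changed genes of each list and up to 6 others per list, brightest first, tested neighbours and, for each member, the 3 genes of most similar pattern. Markers and a few dim genes were named beside these. Other scalings, filters, variance priors, a replicate block, another threshold and leaving out each array were tried. Figures were drawn with matplotlib 3.10.9.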

Additional observations from a re-analysis of the deposited data

How the results depend on the processing

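The 3 ER body genes passed under none of 13 alternatives each, with adjusted p values (limma) from 0.673 to 0.942 for PYK10, 0.0930 to 0.800 for NAI2 and 0.0524 to 0.622 for JAL33. PYK10 changed sign after quantile normalization, at 0.0332; the cause was not tested, here or for the other settings. With the replicate number as a block, 2168 probe sets were higher and 2098 lower, against 1165 and 1024 without it, and 1 ER body gene, NAI1, passed (limma, adjusted p = 0.0376); BGLU15 and SWEET11 passed too. The block ended none of the calls for BGLU42, BGLU44, BGLU45, BGLU46, AT3G12900 and UGT74B1. No label says what same-numbered arrays have in common, and their deviations correlated at 0.28 across probe sets, so with 2 pairs the numbers were not taken as pairs. Leaving out 1 array gave 577 to 1696 higher and 396 to 1347 lower probe sets, the lowest both without exo70A1-2 replicate 2, the lone array of a genotype being assumed to vary like the others; it gave 0 changed ER body genes each time. Without an intensity trend 679 were lower, and at a threshold of 0.10 there were 1599 lower. BGLU15 also passed with the filter at the 60th percentile (limma, adjusted p = 0.0494). Settings for genes other than the 3 were added after the data were seen. Among these, signs turned for JAL34 with equal array medians (-0.0055), and on leaving out 1 array for BGLU16 (-0.079 to 0.37), JAL22 (-0.068 to 0.30), AT3G15980 (-0.023 to 0.12) and AT3G15970 (-0.092 to 0.084). None of these passed. With dim signals noisy and 4 arrays, small changes in the dimmer genes of the lists could be missed.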
